A study of Mus musculus with 40 samples.

Results

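The response of the amygdala to social interaction (SI) was examined as a main effect over all colonisations, by setting every library of mice that had gone through SI against every library of naïve mice, with colonisation as a covariate and with all genes of the count table. This took in all 40 libraries of the series, 28 after SI and 12 naïve. The animals were male Swiss Webster mice aged 10 weeks, first-generation offspring of breeding pairs, and the tissue was the hand-dissected amygdala of the left hemisphere. Conventionally raised mice (CON) were compared with germ-free mice (GF) and with mice born germ-free and moved at weaning to used CON bedding to acquire the microbes of the facility (exGF). The naïve groups CON, GF and exGF held 4 libraries each, CON-SI held 8, GF-SI 12 and exGF-SI 8. SI mice were killed 1 hr after a test in an arena of 3 chambers that held a conventionally raised conspecific and an object, to whose room and arena they had been habituated. No such handling is described for naïve mice, so that social contact cannot be told apart from handling and novelty. The methods give each naïve library as a pool of RNA from 2 animals and the sample labels as one from 2 to 3, whereas each SI library came from 1 animal, and SI therefore cannot be told apart from single sampling. CON mice descended from other breeding pairs than GF and exGF mice.

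When neurons fire, calcium and cyclic AMP signals switch on immediate early genes within minutes without new protein synthesis. Many of these encode transcription factors such as the FOS, EGR and NR4A families, which then drive a later set of effectors that act at synapses or are secreted. Raised secretion and membrane traffic load the endoplasmic reticulum, whose unfolded protein response raises its own chaperones, and heat shock factors do the same for chaperones of the cytosol. Corticosterone released by arousal acts on a further set of genes through the glucocorticoid receptor. The amygdala, a group of nuclei that gives emotional and social meaning to sensory input, is reached by all of these signals.

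P-values measure the spread between these libraries only. Libraries held between 7291810 and 19961958 counts, with a median of 12882693.5 in naïve and 14898136 in SI libraries, and 16111 of the 43629 genes had enough counts to be tested. In 5 libraries the gene model Gm42418, which overlaps ribosomal RNA, took between 6.23% and 32.4% of the counts, and 4 of these 5 were naïve pools: CON-P1 and CON-P3, and in exGF the pools exGF-P1 and exGF-P2. In library names P marks a naïve pool and S an SI animal. Without these rRNA-rich libraries 28 of 190 called genes chosen for closer description lost their call, and values without them are given beside the results they touch most. Levels are counts scaled to library size (CPM, the count in each 1e+06 of the TMM-scaled total), fold changes are on the log2 scale as SI over naïve with their standard error, and genes were called at an adjusted p of at most 0.1.

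SI was followed by small changes in many genes, led by rises of activity-induced genes and chaperones. A total of 4194 genes were called (26.0% of those tested), 2219 of them higher (13.8%) and 1975 lower (12.3%) after SI. The median rise was 0.21 and the median fall -0.27. Past a log2 fold change of 0.5 there were 221 rises (1.37%) and 325 falls (2.02%), and past 1 there were 32 and 29. The genes that rose had a median level of 43.3 CPM, those that fell 8.78 CPM and all genes tested 13.9 CPM. In the plot of fold change against adjusted p, rises reached far smaller p than falls.

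**Figure D1:**
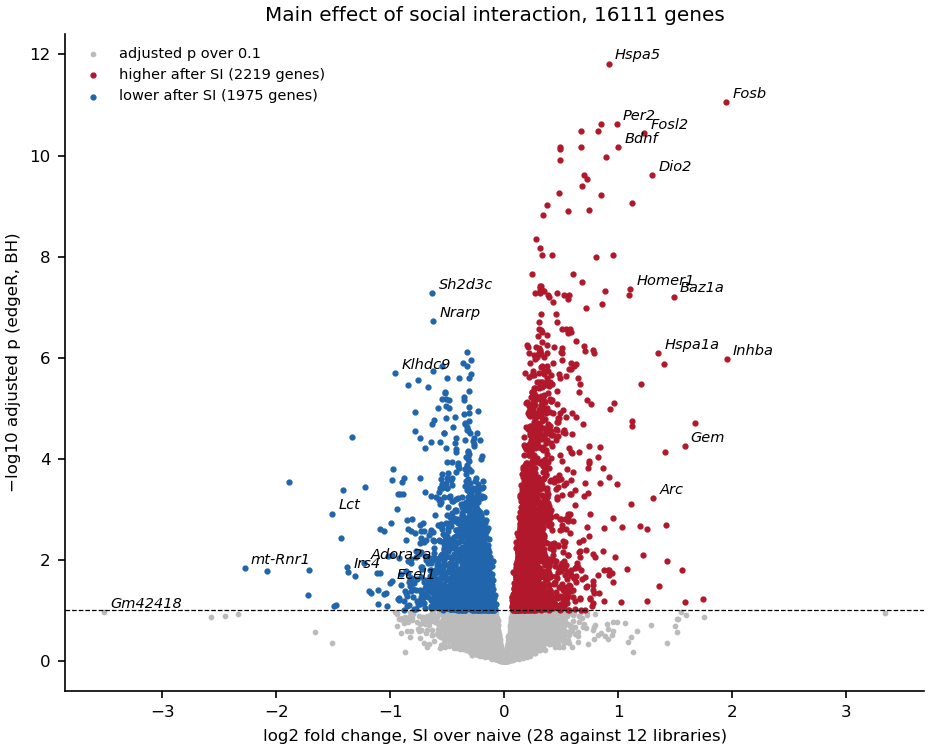
Each point is 1 of 16111 genes, with the log2 fold change of SI over naïve on the x axis and the −log10 of the adjusted p on the y axis; the dashed line marks 0.1. Hspa5 (0.92) and Fosb (1.95) stand highest among the rises, Sh2d3c (-0.63) and Nrarp (-0.62) among the falls, and Gm42418 lies just under the line.

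For 15 genes (0.0931% of those tested) the lowest of the 28 SI libraries lay above the highest of the 12 naïve libraries, and for 0 genes (0%) did all SI libraries lie below all naïve ones. These 15 genes were, from the smallest to the largest fold change, Naa25, Cdk13, 9330159F19Rik, Ppp1r15b, Gpt2, Dnajc3, Hspa8, Hsph1, Tra2a, Nfil3, Ppp1r3c, Hspa5, Bdnf, Dio2 and Fosb. They were listed after their values were seen, and Naa25, Bdnf and Dio2 overlap a gene on the opposite strand, whose reads cannot be told apart from theirs because strand was not counted. Naa25, a subunit of an enzyme that acetylates proteins at their first residue, shows how small such a change could be, with 55.0 to 62.5 CPM in naïve and 63.9 to 76.0 CPM in SI libraries (log2 fold change 0.24). Ppp1r15b, which helps to remove the phosphate of translation factor eIF2, rose by 0.34 and Ppp1r3c, which directs a phosphatase to glycogen, by 0.89.

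Of 24 immediate early transcription factors tested, 16 rose and 2 fell, with a median log2 fold change of 0.61 against -0.01 over all genes tested. Fosb, a partner of JUN proteins in the AP-1 factor (gene at chr7:19302696-19310051, minus strand, GRCm38), ran from 4.59 to 12.9 CPM in naïve libraries (median 8.34) and from 17.9 to 47.4 CPM after SI (median 29.1). No SI library overlapped the naïve range, and the log2 fold change was 1.95 ± 0.155 (adjusted p = 8.88e-12), the smallest p of this list. Fosl2, another AP-1 member, had 23.6 to 54.8 CPM in naïve libraries (median 28.7) and 48.5 to 113 CPM after SI (median 72.6), with 27 of 28 SI libraries above all naïve ones (1.23 ± 0.106, adjusted p = 3.66e-11). Nr4a3, an orphan nuclear receptor, ran from 18.8 to 60.8 CPM in naïve libraries (median 31.8) and from 50.3 to 111 CPM after SI (median 73.5). The 2 ranges overlapped in 4 SI libraries, and the gene rose by 1.12 ± 0.111 (adjusted p = 8.58e-10).

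Egr2, a zinc finger factor, had 2.61 to 18.6 CPM in naïve libraries (median 6.17) and 8.29 to 56.3 CPM after SI (median 18.2), so that only 12 SI libraries lay above the naïve range, which exGF-P1 topped (1.41 ± 0.253, adjusted p = 7.26e-05). Crem, a factor that answers to cyclic AMP, rose by 0.67. Fos (0.99), Egr1 (0.96), Egr3 (0.72), Egr4 (0.74), Nr4a2 (0.64) and Atf3 (1.67) rose as well, although Atf3 had a median of only 0.556 CPM after SI. The fallers were Ier2 (-0.55), which lost its call without the rRNA-rich libraries (-0.34, adjusted p = 0.278), and Btg2 (-0.50), a growth-arrest gene. Btg2 ran from 11 to 27.1 CPM in naïve and from 8.87 to 17.4 CPM in SI libraries. Among the 6 that did not pass were Npas4 (-0.17, adjusted p = 0.51), Nr4a1 (0.38, adjusted p = 0.16), Junb (0.30, adjusted p = 0.12) and Jun (0.20).

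Among 20 activity-induced synaptic and secreted effectors, 18 rose and 0 fell, with a median log2 fold change of 0.62. Bdnf, the neurotrophin that supports synaptic plasticity (chr2:109674700-109727007, plus strand), had 30.4 to 43.6 CPM in naïve libraries (median 35.2) and 48.2 to 117 CPM after SI (median 71.7). The ranges were apart, with exGF-S8 highest, and the level rose 2.00-fold (1.00 ± 0.0887, adjusted p = 6.72e-11). Inhba, which encodes the activin A subunit, showed the largest rise of the genes named here together with Fosb, from a naïve median of 2.92 CPM (0.457 to 6.84) to 11.2 CPM after SI (3.21 to 27.3). Of its 28 SI libraries 22 exceeded every naïve one (1.95 ± 0.268, adjusted p = 1.06e-06). Homer1, a scaffold that ties glutamate receptors to internal calcium stores and whose short form is induced by activity, ran from 234 to 478 CPM in naïve libraries (median 299) and from 399 to 1292 CPM after SI (median 627). The upper naïve values, from exGF-P1 and exGF-P2 as the plot by library shows, reached into the SI range, and the gene rose by 1.11 ± 0.129.

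Arc, a capsid-like protein that controls receptor endocytosis, varied widely, from 35.3 to 254 CPM in naïve libraries (median 77.6) and from 90.4 to 588 CPM after SI (median 183). Only 8 SI libraries lay above the naïve maximum in exGF-P1 (1.31 ± 0.275, adjusted p = 0.000604). The prohormone convertase Pcsk1 (0.70), the kinase Sik1 (0.78), the cell cycle inhibitor Cdkn1a (1.4) and the pentraxin Nptx2 (0.93) rose too. Without the rRNA-rich libraries 15 of the 20 effectors rose. Of 14 MAPK phosphatases and ERK feedback inhibitors, which damp the kinase cascade that induces many of the genes above, 9 rose and 1, Spry1 (-0.22), fell. Dusp4, a nuclear phosphatase of MAP kinases, went from 7.92 to 17.2 CPM in naïve libraries (median 11) to between 13.1 and 34.3 CPM after SI (median 21.2), with 25 of 28 above all naïve values (0.95 ± 0.104, adjusted p = 9.13e-09). Spred1 (0.51), Spred2 (0.40) and Errfi1 (0.41) followed with smaller rises.

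**Figure D2:**
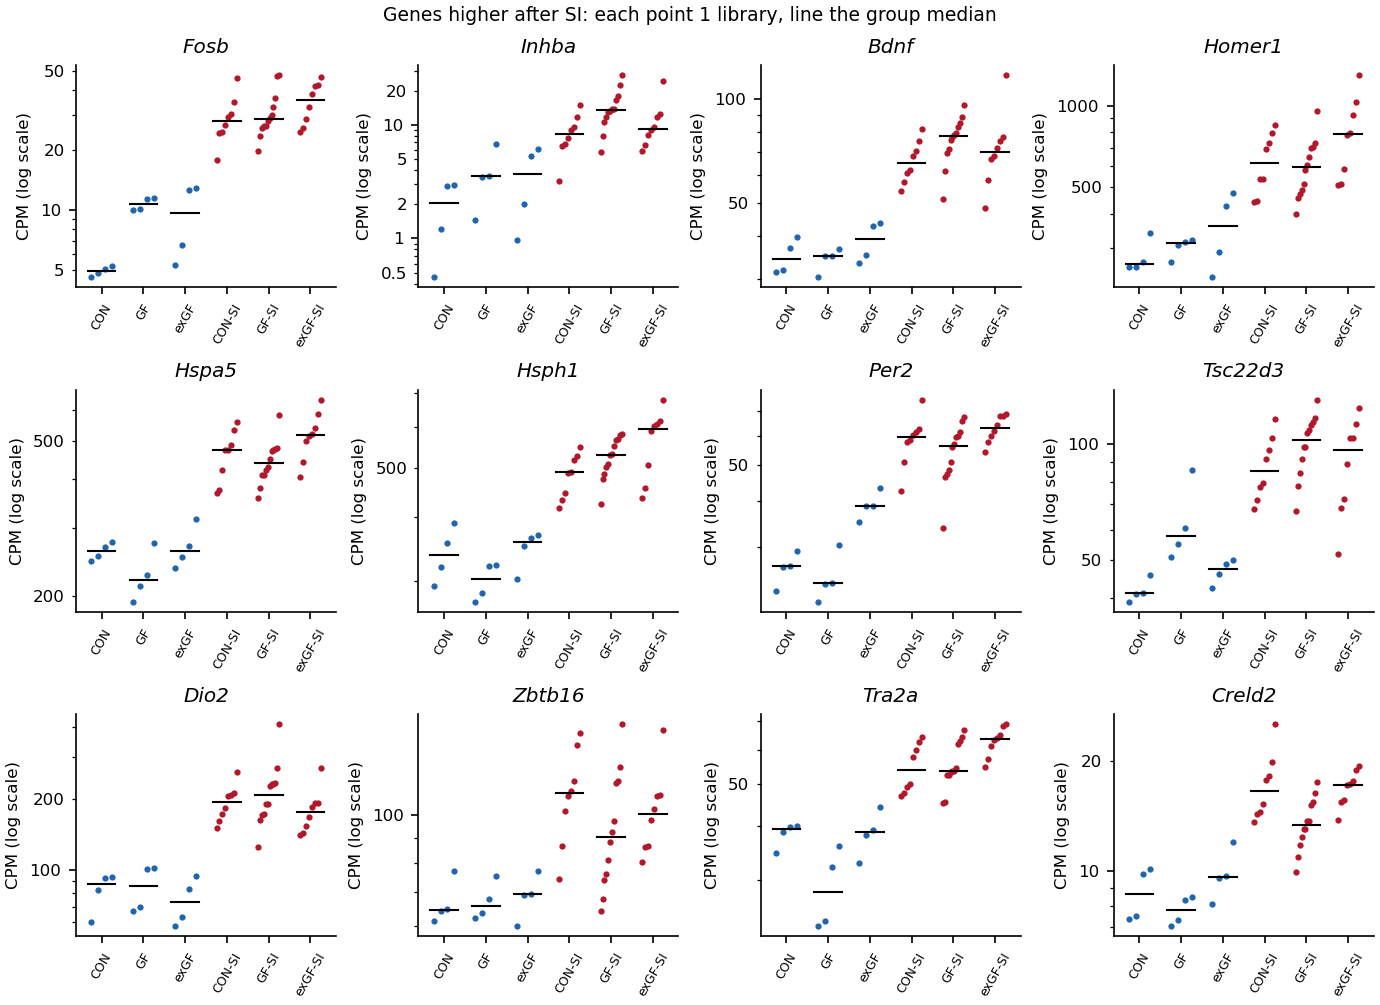
CPM (y axis, log scale) of 12 genes in every library, by group, with naïve pools in blue, SI animals in red and the group median as a line. SI libraries of Fosb, Bdnf, Hspa5, Hsph1, Dio2 and Tra2a lie above all naïve ones, whereas Zbtb16 and Tsc22d3 overlap.

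Of 27 cytosolic heat shock chaperones tested, which fold proteins and keep them soluble, 25 rose and 0 fell (92.6%, beside 13.8% of all genes), with a median of 0.34. Hspa8, the constitutive HSP70, had 1045 to 1313 CPM in naïve libraries (median 1182) and 1423 to 2073 CPM after SI (median 1649.7). Its ranges did not overlap (0.49 ± 0.0441, adjusted p = 7.35e-11). Hsph1, an exchange factor of HSP70, ran from 273 to 389.9 CPM in naïve libraries (median 322) and from 417 to 679 CPM after SI (median 522), again without overlap (0.67 ± 0.0598, adjusted p = 6.72e-11). Hspa1a, a stress-inducible HSP70, was far less abundant, at 2.16 to 3.93 CPM in naïve libraries (median 2.85) and 2.71 to 15.4 CPM after SI (median 7.13). All but 1 SI library exceeded the naïve range (1.35 ± 0.183, adjusted p = 8.16e-07), and since Hspa1a and Hspa1b (1.13) are almost identical copies, reads may have been split between them. The HSP90 partners Fkbp4 (0.43) and Chordc1 (0.70), the small heat shock protein Hspb1 (0.92), the HSP40 member Dnajb1 (0.78) and Hsp90aa1 (0.28) rose as well.

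Of 27 genes of the unfolded protein response of the endoplasmic reticulum 20 rose and 1 fell (Sec61b, -0.22, a subunit of the translocon), with a median of 0.40, and without the rRNA-rich libraries 20 rose and 0 fell. Hspa5, which encodes BiP, the master chaperone of this compartment (chr2:34771970-34777547, plus strand), had the smallest p of all genes tested. Naïve libraries held 194 to 315 CPM (median 253) and SI libraries 358 to 637 CPM (median 473). The ranges did not overlap, and the level rose 1.89-fold (0.92 ± 0.0676, adjusted p = 1.52e-12). Dnajc3, a cochaperone of BiP that also restrains the kinase PERK, ran from 68.8 to 90.8 CPM in naïve libraries (median 77.2) and from 93.5 to 129 CPM after SI (median 106). The ranges were apart here too (0.49 ± 0.0445, adjusted p = 1.20e-10). Creld2, a folding factor of this compartment, had 7.05 to 12.0 CPM in naïve libraries (median 8.40) and 9.96 to 25.3 CPM after SI (median 15.4), with 25 of 28 above all naïve values (0.85 ± 0.0831, adjusted p = 5.90e-10). The disulphide isomerase Pdia4 followed at 48.8 to 73.8 CPM in naïve libraries (median 59.7) and 70.6 to 123 CPM after SI (median 92.7), with 1 SI library inside the naïve range (0.68 ± 0.0576, adjusted p = 3.33e-11).

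The same list held rises of Sdf2l1 (1.09), Manf (0.56), Pdia6 (0.47), Hsp90b1 (0.42), Calr (0.40) and Hyou1 (0.26), all resident folding proteins or secreted protectors, and of the transcription factors Xbp1 (0.54), Ddit3 (0.46) and Atf4 (0.23). Promoters of 3 members are shown because members of this list share an element there. The endoplasmic reticulum stress element, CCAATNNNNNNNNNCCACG, which contains a CCAAT box, was searched on both strands of the RefSeq window (GRCm38.p6) of 250 bases before and 50 after each start. It was found for 9 of 22 list members with a promoter in the table (40.9%), namely Calr, Canx, Creld2, Derl3, Dnajc3, Hsp90b1, Hspa5, Pdia6 and Syvn1, and for 0.164% of 11584 tested genes so matched and 0.137% of all 27025 genes in the table. Of these 9, Syvn1 (0.08) did not pass. The share in the list is a trait of its members, whatever their change after SI. Among genes with a promoter in the table, 3 of 144 that rose past 0.5 held the element (2.08%), and 0 of 227 that fell past 0.5. The 250 bases before the start are printed 5′ to 3′ on the strand of the gene, with the element in capitals, for Hspa5 (chr2:34771840-34772089, plus strand), Dnajc3 (chr14:118937682-118937931, plus strand) and Creld2 (chr15:88819396-88819645, plus strand, element on the opposite strand). For Hspa5 the RefSeq start lies downstream of the gene's first base in GENCODE vM21, the annotation used for names. By that annotation its element lies inside the gene. A match describes letters only.
Hspa5: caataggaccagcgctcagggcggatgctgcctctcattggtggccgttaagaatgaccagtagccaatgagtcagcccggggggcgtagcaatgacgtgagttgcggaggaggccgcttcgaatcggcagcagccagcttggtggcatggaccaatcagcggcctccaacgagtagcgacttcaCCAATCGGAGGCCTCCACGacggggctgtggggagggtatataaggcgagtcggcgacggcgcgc
Dnajc3: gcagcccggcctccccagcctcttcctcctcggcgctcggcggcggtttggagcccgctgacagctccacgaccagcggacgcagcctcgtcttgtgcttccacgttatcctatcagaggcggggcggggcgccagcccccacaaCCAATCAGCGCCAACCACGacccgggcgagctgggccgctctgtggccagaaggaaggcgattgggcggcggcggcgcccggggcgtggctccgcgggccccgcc
Creld2: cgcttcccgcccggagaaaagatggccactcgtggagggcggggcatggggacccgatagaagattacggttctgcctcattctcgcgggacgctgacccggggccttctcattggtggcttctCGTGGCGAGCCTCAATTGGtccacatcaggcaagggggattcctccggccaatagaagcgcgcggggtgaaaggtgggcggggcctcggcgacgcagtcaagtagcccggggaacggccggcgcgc

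Of 19 circadian clock genes tested 9 rose (47.4%) and 2 fell (10.5%), beside 13.8% and 12.3% of all genes, with a median of 0.14. Per2, a repressor of the clock, went from 21.3 to 43.3 CPM in naïve libraries (median 28) to between 33.7 and 75 CPM after SI (median 59.6), with 26 of 28 above all naïve libraries (0.99 ± 0.0818, adjusted p = 2.37e-11). Nfil3, a leucine zipper repressor, ran from 3.08 to 6.60 CPM in naïve and from 7.12 to 13.9 CPM in SI libraries without overlap (0.86 ± 0.104, adjusted p = 8.74e-08). Per1 (0.45), Cry1 (0.48) and Clock (0.18) rose, whereas the fallers were the output factor Dbp (-0.33) and the nuclear receptor Nr1d1 (-0.26). The time of day of each dissection was not used here, and its part in these values was not tested.

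Of 20 glucocorticoid-induced genes 13 rose (65.0%, beside 13.8% of all genes) and 0 fell, with a median of 0.43. Tsc22d3, which encodes the leucine zipper GILZ, had 39.1 to 85.9 CPM in naïve libraries (median 47.5) and 51.9 to 130.2 CPM after SI (median 97.5). GF-P4 lay far above the other naïve pools, so that 18 of 28 SI libraries exceeded the naïve range (0.88 ± 0.103, adjusted p = 4.73e-08). Zbtb16, a zinc finger repressor, ran from 59.9 to 77.4 CPM in naïve libraries (median 66.4) and from 64.3 to 152 CPM after SI (median 100), with 23 SI libraries above all naïve ones (0.60 ± 0.101, adjusted p = 3.16e-05). Fkbp5, a cochaperone of the receptor, rose by 0.54, the kinase Sgk1 by 0.64 and the lipid droplet coat Plin4 by 1.21. Per1, Errfi1 and Cdkn1a belong to this list as well as to lists above. Plin4 overlapped widely between naïve (0.926 to 15.5 CPM) and SI libraries (2.14 to 24.8 CPM).

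Dio2, the deiodinase that turns thyroxine into active thyroid hormone and in brain is mainly made by glia, was among the largest rises with no overlap. Naïve libraries held 57.9 to 102 CPM (median 82.7) and SI libraries 125 to 412 CPM (median 189), a 2.46-fold rise (1.30 ± 0.121, adjusted p = 2.40e-10). Its rise was of like size in CON (1.24), GF (1.36) and exGF (1.28). Its promoter is shown because it holds the cyclic AMP response element TGACGTCA, which reads the same on both strands and was found for 9 of 144 genes that rose past 0.5 (6.25%), 7 of 227 that fell past 0.5 (3.08%) and 3.5% of tested genes with a promoter in the table. The 250 bases before the RefSeq start (chr12:90739039-90739288, minus strand, GRCm38.p6) are given on the strand of the gene, with the element in capitals. That start lies upstream of the gene's first base in GENCODE vM21, the annotation used for names.
Dio2: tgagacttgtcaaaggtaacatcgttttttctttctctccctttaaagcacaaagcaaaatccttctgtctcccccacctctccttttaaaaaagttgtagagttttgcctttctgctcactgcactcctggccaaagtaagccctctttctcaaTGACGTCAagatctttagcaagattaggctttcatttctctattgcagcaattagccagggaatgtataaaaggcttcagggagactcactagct

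Several genes outside these lists were among the 10 rises of smallest p or the 15 largest. Banp, a nuclear matrix protein that binds DNA, ran from 12.6 to 27.8 CPM in naïve libraries (median 15.3) and from 25.3 to 40.2 CPM after SI (median 31.5), with 25 SI libraries above all naïve ones (0.85 ± 0.0712, adjusted p = 2.37e-11). P4ha1, a prolyl hydroxylase that modifies collagen, rose by 0.82 ± 0.0701 (adjusted p = 3.33e-11) and Ddx50, an RNA helicase, by 0.49 ± 0.0435 (adjusted p = 6.72e-11), each with 26 SI libraries above the naïve range. Baz1a, a subunit of chromatin remodelling complexes, had 3.29 to 7.48 CPM in naïve libraries (median 4.19) and 5.02 to 24.0 CPM after SI (median 11.2). The rise was 1.49 ± 0.177 (adjusted p = 6.18e-08), with exGF-P1 the highest naïve pool for all of these 4 genes. Gem, a small GTPase (1.58), Gm14026 (1.56), Fam83d (1.42) and the kinase Dapk2 (1.25) rose from low levels, at naïve medians between 0.361 and 1.27 CPM. Gm14026 overlapped widely, with 0.0 to 3.82 CPM in naïve and 0.0 to 5.29 CPM in SI libraries.

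Factors of RNA splicing rose in part. Of 13 SR proteins and Tra2 members, which choose splice sites, 6 rose (46.2%) and 0 fell, with a median of 0.12. Tra2a ran from 23.4 to 44.3 CPM in naïve libraries (median 37.1) and from 45.3 to 68.8 CPM after SI (median 57.5), without overlap (0.72 ± 0.0685, adjusted p = 2.89e-10). Srsf3 had 90.3 to 113 CPM in naïve libraries (median 101) and 102 to 143 CPM after SI (median 126), with 23 SI libraries above the naïve range (0.31 ± 0.0384, adjusted p = 2.01e-07). Srsf10 (0.39) and Srsf7 (0.37) rose, while Tra2b (0.10), Srsf5 (0.02) and Srsf2 (-0.01) did not pass. Among the other lists, 2 of 7 SR protein kinases (Srpk1, 0.19, and Clk3, 0.18), 6 of 25 hnRNP proteins and 12 of 52 core spliceosome proteins rose, and 4 of the latter fell. Without the rRNA-rich libraries 12 hnRNP genes rose. The shares of rises among hnRNP (24.0%) and core spliceosome proteins (23.1%) stand beside 13.8% over all genes. By colonisation the median of the hnRNP list was -0.118 in CON, 0.267 in GF and 0.092 in exGF. For core spliceosome proteins the medians were 0.016, 0.118 and 0.029, and for SR proteins and Tra2 members 0.07, 0.194 and 0.315.

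Sfpq, a paraspeckle protein needed for long introns, rose by 0.48 and Pspc1 by 0.20. Cirbp, an RNA-binding protein induced by mild cold, went from 29.9 to 61.0 CPM in naïve libraries (median 39.6) to between 18.3 and 36.5 CPM after SI (median 29.3), with 17 of 28 SI libraries below all naïve ones (-0.46 ± 0.0844, adjusted p = 0.000114). Its cold-inducible relative Rbm3 (-0.22) did not pass. Of 14 nucleolar and Cajal body proteins only Nop58 rose (0.10) and Wrap53, which guides RNAs to Cajal bodies, fell (-0.33). Each was 7.14% of that list, beside 13.8% and 12.3% of all genes. Of 13 small nucleolar and Cajal body RNAs of the list 2 rose, Scarna13 (0.47) and Snora73a (0.62), the latter at a median of 0.429 CPM. The share of 15.4% lay near the 13.8% of all genes. Only 1 of the 13 rose without the rRNA-rich libraries, and 1 in a DESeq2 fit of all libraries. Many of these RNAs lie inside introns of other genes, and their reads cannot always be told apart from those of the host.

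**Figure D3:**
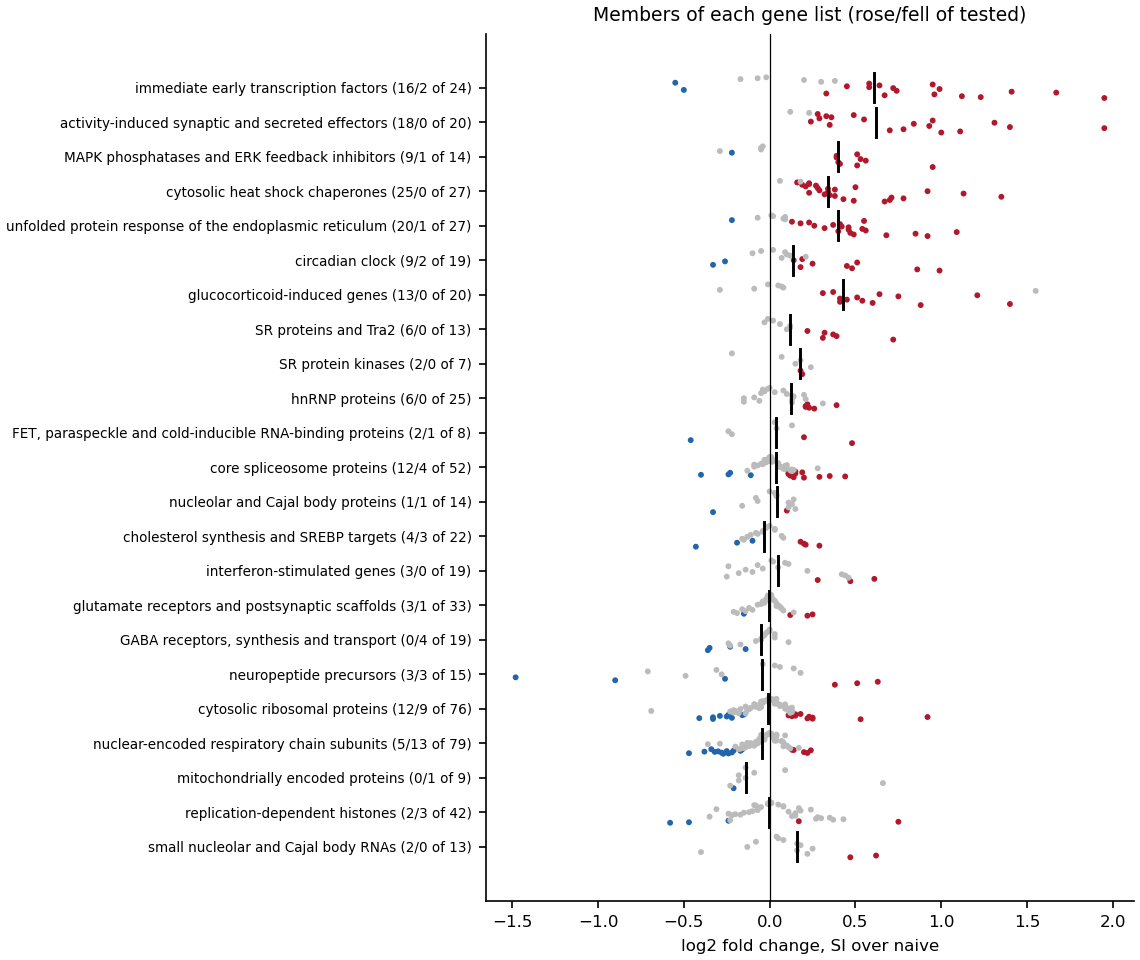
Each point is the log2 fold change of 1 tested member of a gene list, red if it rose, blue if it fell and grey if it did not pass, with the median of the list as a bar. Numbers beside each name give rises and falls of the members tested; the chaperone lists (25 and 20 of 27) and the effectors (18 of 20) lie almost wholly to the right.

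Of 33 glutamate receptors and scaffolds 3 rose (Dlg1, 0.22; Gria2, 0.12; Grm4, 0.25) and Grik5 fell (-0.15), shares of 9.09% and 3.03% beside 13.8% and 12.3% of all genes. Gria2, Grm4 and Grik5 lost their call without the rRNA-rich libraries, where 2 rose and 0 fell. Of 19 genes of GABA receptors, synthesis and transport 0 rose and 4 fell, among them the glial transporter Slc6a11 (-0.36), the receptor subunit Gabra5 (-0.35) and the vesicular carrier Slc32a1 (-0.23), of which Gabra5 and Slc32a1 lost their call without the rRNA-rich libraries. The share of 21.1% stands beside 12.3% of all genes. Among 15 neuropeptide precursors 3 rose and 3 fell. The stress peptide Crh rose by 0.63 from a naïve median of 2.55 CPM to 3.78 CPM, Adcyap1, the precursor of PACAP, by 0.51 and Vip by 0.38. Nts (-0.90), Sst (-0.26) and Gal (-1.48) fell, of which Gal was hardly detected (median 0.0833 CPM in naïve and 0.0700 CPM in SI libraries), stood at 2.80 CPM in GF-P1 and lost its call without that pool.

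Of 76 cytosolic ribosomal proteins 12 rose (15.8%), such as Rps24 (0.53), and 9 fell (11.8%), such as Rpl35 (-0.33), shares close to those of all genes (13.8% and 12.3%). Without the rRNA-rich libraries 7 rose and 13 fell, and these genes have many near-identical pseudogenes that may share their reads. Of 79 nuclear-encoded respiratory chain subunits 5 rose (6.33%) and 13 fell (16.5%), for example Cox6a2 (-0.47) and Ndufv3 (-0.27), and of 9 mitochondrially encoded proteins mt-Nd1 fell (-0.21). Cholesterol synthesis and SREBP targets gave 4 rises, Cyp51 (0.29), a demethylase of the pathway, among them, and 3 falls of 22 (18.2% and 13.6%). Of 19 interferon-stimulated genes 3 rose (15.8%), Rsad2 (0.47), Irf9 (0.28) and Ifit1 (0.61). Of 42 replication-dependent histones 2 rose and 3 fell (4.76% and 7.14%), and without the rRNA-rich libraries 0 and 4.

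The falls had larger p than the leading rises. Sh2d3c, an adaptor of integrin and receptor kinase signalling, had the smallest p among them. It had 7.81 to 14.1 CPM in naïve libraries (median 10.4) and 5.43 to 10.2 CPM after SI (median 7.02), with 25 of 28 SI libraries below all naïve ones (-0.63 ± 0.0743, adjusted p = 5.20e-08). Nrarp, a feedback inhibitor and target of Notch signalling, ran from 9.69 to 15.6 CPM in naïve libraries (median 11.9) and from 4.40 to 10.8 CPM after SI (median 7.85), again with 25 SI libraries below (-0.62 ± 0.0777, adjusted p = 1.91e-07). Stx17, a syntaxin of autophagosomes, had 22.8 to 30.6 CPM in naïve libraries (median 25.5) and 17.5 to 24.7 CPM after SI (median 20.9), so that 24 lay below (-0.32 ± 0.0434, adjusted p = 7.88e-07). Brca2 (-0.62), which serves DNA repair, Cd276 (-0.54), Klhdc9 (-0.96), Mtx1 (-0.36), Ctc1 (-0.29), Aspscr1 (-0.33) and the peroxisome factor Pex3 (-0.29) completed the 10 falls of smallest p, and all of the 10 but Stx17 and Ctc1 overlap a gene of the opposite strand.

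Several of the largest falls rested on few naïve pools. Lct, lactase, which in brain is known from the dentate gyrus, had a naïve median of 1.12 CPM and an SI median of 0.869 CPM, but CON-P4 (11.2), exGF-P4 (7.76) and CON-P3 (4.59) stood above all SI libraries, whose highest was 1.33 (-1.51 ± 0.337, adjusted p = 0.00121). Adora2a, the adenosine receptor of striatal neurons, had medians of 0.829 and 0.801 CPM, and GF-P1 alone held 14.1 CPM (-1.23 ± 0.355, adjusted p = 0.0115). Without GF-P1 Adora2a lay at -0.30 and was not called, and Slc5a7, the choline transporter, went from -0.93 to 0.32 and was not called either. Irs4, an insulin receptor substrate best known from the hypothalamus, had 0.81 to 15.1 CPM in naïve libraries (median 1.68) and 0.118 to 8.82 CPM after SI (median 0.800), with 14 of 28 SI libraries below the naïve range (-1.37 ± 0.42, adjusted p = 0.0173), and it too lost its call without GF-P1 (-0.96). Arhgap36 (-1.03) and the pseudogenes Rps24-ps3 (-1.49) and Rpl3-ps1 (-0.93) lost their call without 4 or more single libraries each. Both pseudogenes share sequence with their parent genes. Jhy (-0.98), Samd3 (-0.97), Izumo4 (-0.94) and Gkn3 (-0.93) kept their call. The level of Gkn3 differed between naïve groups, with 3.24 to 4.11 CPM in CON, 1.43 to 3.85 in exGF and 0.479 to 1.04 in GF. After SI it held 0.831 to 2.33 CPM in CON-SI, 0.673 to 1.18 in exGF-SI and 0.53 to 1.33 in GF-SI. Ecel1, a membrane protease, kept its call whichever library was left out, with medians of 6.77 and 2.01 CPM (-1.0 ± 0.333, adjusted p = 0.0289). It ran from 2.88 to 10.5 CPM in naïve and from 0.364 to 13.3 CPM in SI libraries. While 17 SI libraries lay below all naïve ones, GF-S5 (13.3), GF-S7 (11.5) and exGF-S5 (10.9) lay above them.

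Transcripts that follow ribosomal RNA are set apart here. Gm42418 had a median of 706 CPM in naïve and 425 CPM in SI libraries, with a naïve maximum of 610214 CPM in CON-P1 and an SI maximum of 110850 CPM in exGF-S7, and did not pass (-3.51 ± 1.56, adjusted p = 0.11). mt-Rnr1, the mitochondrial 12S ribosomal RNA, ran from 604 to 113683 CPM in naïve and from 776 to 37152 CPM in SI libraries and fell by 2.28 ± 0.679 on the log2 scale (adjusted p = 0.0144). Without the 5 rRNA-rich libraries its fold change was -0.16 (adjusted p = 0.829).

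**Figure D4:**
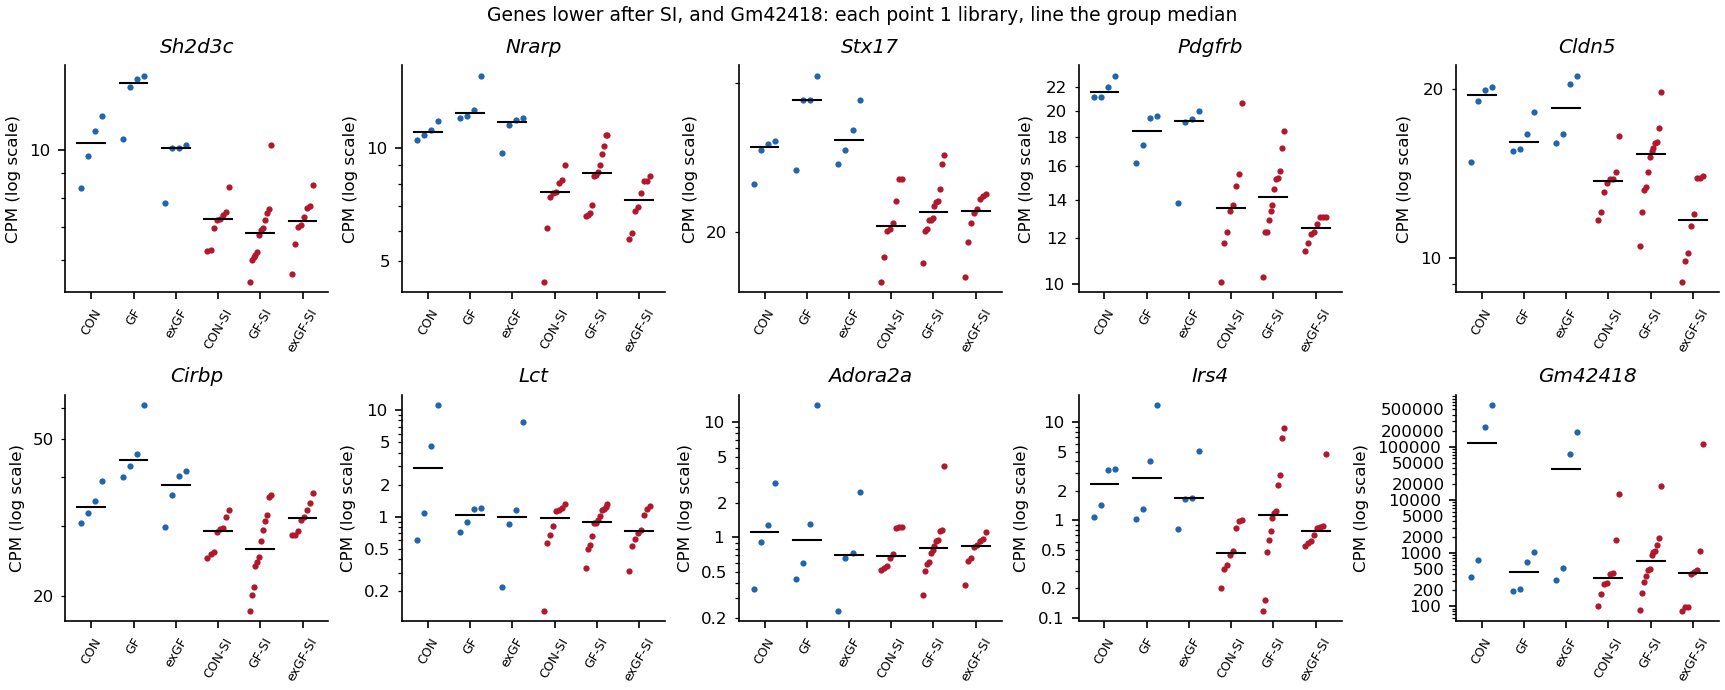
CPM (y axis, log scale) of 9 genes that fell, and of Gm42418, in every library by group, with naïve pools in blue, SI animals in red and the group median as a line. Sh2d3c, Nrarp and Stx17 are shifted in all 3 colonisations, whereas GF-P1 stands out for Adora2a (14.1) and Irs4 (15.1) and CON-P4 for Lct (11.2).

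Markers of cell types and neighbouring regions moved with SI in places. Of 10 endothelium and pericyte markers 0 rose and 4 fell, where 12.3% of all genes fell. Their summed level ran from 306 to 403 CPM in naïve libraries (median 349) and from 293 to 415 CPM in SI libraries (median 345). Pdgfrb, the receptor that defines pericytes, had 13.8 to 23.0 CPM in naïve libraries (median 19.5) and 10.1 to 20.6 CPM after SI (median 13.1), with 19 SI libraries below all naïve ones (-0.50 ± 0.0724, adjusted p = 2.54e-06). Cldn5, the tight junction protein of brain endothelium, ran from 14.8 to 21.1 CPM in naïve libraries (median 17.4) and from 9.09 to 19.7 CPM after SI (median 13.8), and 20 SI libraries were lower than any naïve one (-0.40 ± 0.0754, adjusted p = 0.000131). Kdr (-0.36) and Slco1a4 (-0.13), the other fallers, lost their call without the rRNA-rich libraries, where 1 of the 10 markers rose and 2 fell. Among markers that did not pass, Rgs5 (0.1), Flt1 (0.14) and Ly6c1 (0.16) had positive values. Tek (-0.14), Vtn (-0.09) and Pecam1 (-0.02) had negative ones. In bulk tissue, fewer cells of a type and less RNA per cell cannot be told apart.

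Of 10 microglia markers C1qa (0.21) and C1qb (0.24), subunits of complement C1q, rose and P2ry12 (-0.27), Cx3cr1 (-0.27), Aif1 (-0.24) and Csf1r (-0.14) fell, while without the rRNA-rich libraries 0 rose and 2 fell. Their summed levels were 222 to 269.9 CPM in naïve and 208 to 306 CPM in SI libraries. Astrocytes gave 1 rise (Aldh1l1, 0.18) and 1 fall (Ntsr2, -0.19) of 10, oligodendrocytes 1 fall of 10 (Opalin, -0.69), where Ntsr2 and Opalin lost their call without the rRNA-rich libraries, and their precursors 1 rise (Gpr17, 0.37) and 2 falls of 6. Excitatory neurons gave 2 rises (Nptx1, 0.30, and Nrn1, 0.29) and 1 fall (Camk2a, -0.27) of 10. Without the rRNA-rich libraries Nrn1 (adjusted p = 0.117) and Camk2a (-0.09, adjusted p = 0.547) lost their call. Inhibitory neurons gave 1 rise and 2 falls of 10, and 1 and 1 without those libraries. Choroid plexus and ependyma gave 0 calls of 9 at a median of 0.95, but summed levels reached 303 CPM in a naïve and 1475 CPM in an SI library, and Cldn2, a junction protein of that epithelium outside the list, was called (1.74) with values of -0.65 in CON, 2.93 in GF and 2.87 in exGF. Cldn2 lost its call without the rRNA-rich libraries (1.39, adjusted p = 0.218) and without any of GF-P2, exGF-P2 and exGF-P4. Meninges (summed level 151 to 296 CPM in naïve and 33.3 to 459 CPM in SI libraries) and blood cells (61.6 to 167 and 64.1 to 159.7 CPM) gave 0 calls of 9 and of 5.

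Of 10 marker genes of amygdala nuclei 9 had enough counts to be tested, and their summed level ran from 411 to 554 CPM in naïve libraries (median 499.6) and from 317 to 579 CPM in SI libraries (median 417). Of these 0 rose and 3 fell (33.3%, beside 12.3% of all genes), namely Lmo3 (-0.43), Tshz1 (-0.25) and Etv1 (-0.21). Etv1 lost its call without the rRNA-rich libraries. Of 11 striatal markers 5 fell (45.5%), namely Gpr6 (-0.74), Rarb (-0.39), Adora2a, Slc5a7 and Drd2 (-0.76). Summed levels of the striatal markers were 239 to 513 CPM in naïve and 243 to 388 CPM in SI libraries. Of 10 cortical and hippocampal markers Fezf2 rose (0.34) and Lct, Dsp (-1.05), C1ql2 (-0.63) and Prox1 (-0.41) fell, of which Dsp lost its call without CON-P4 or exGF-P4. Their summed levels were 365 to 528 and 324 to 740.1 CPM. The 4 hypothalamic markers tested gave 0 calls, at 4.05 to 26.4 and 1.00 to 30.8 CPM. The part of dissection or of cell make-up in the calls above was not tested.

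Whether the response was shared by the colonisations was asked in 3 ways. Within the fit of 6 groups 969 genes were called in CON, 2503 in GF and 1401 in exGF, where GF-SI had the most libraries. Of the 2219 rises 91.9% had the same sign in all 3 colonisations, as had 87.2% of the 1975 falls, beside 43.2% of all genes tested, although these libraries also made the calls. Of the 4194 genes 220 (5.25%) were also called within each colonisation, 568 within 2, 1908 within 1 and 1498 (35.7%) within none.

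Calls were next made from the libraries of 2 colonisations and read in the third, which shared no library with them. Of rises called without CON 82.1% had the same sign in CON and 14.3% were called there, where 2.35% of all genes were called as higher. In GF these shares were 82.0% and 30.8% (all genes 7.90%), and in exGF 94.3% and 30.5% (all genes 4.58%). Falls carried over less fully, with the same sign for 72.7% in CON, 67.8% in GF and 86.9% in exGF, and with calls for 4.69%, 13.7% and 14.9%, beside 1.37%, 5.87% and 3.01% of all genes. The share of all genes with a positive sign was between 48.3% and 49.9% in the 3 colonisations. Without the rRNA-rich libraries, which leaves 2 naïve pools in CON and in exGF, signs held for 88.2%, 88.8% and 94.9% of rises and for 78%, 78.6% and 88.3% of falls in CON, GF and exGF. Calls in the colonisation left out were then few in CON (0.929% of rises and 0.0694% of falls, beside 0.114% and 0.0443% of all genes) and in exGF (7.29% and 1.30%, beside 0.729% and 0.254%).

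The difference between the responses, an F-test of 2 interaction contrasts, was called for 7 genes (0.0434%), 4 of which were also called in the main effect, while 2226 genes (13.8%) had an unadjusted p under 0.05. Kcnj16, a subunit of inward rectifying potassium channels of glia, had the smallest p of these 4 (adjusted p = 0.0275). It held 11.6 to 22.4 CPM in the 4 CON pools and 5.35 to 13.0 CPM over all SI libraries, and its response was -1.43 ± 0.193 in CON, 0.07 ± 0.193 in GF and 0.05 ± 0.208 in exGF. Glo1, which clears methylglyoxal, likewise fell in CON (-0.57 ± 0.0916) with values of 0.09 in GF and -0.02 in exGF (adjusted p of the difference 0.0759). Fbxl4, a mitochondrial ubiquitin ligase adaptor, fell in GF (-0.71 ± 0.0891) beside -0.05 in CON and -0.14 in exGF (0.0759), and Hexim1, which holds the elongation factor P-TEFb inactive, rose in GF (0.66 ± 0.0914) beside 0.18 and 0.03 (0.0989). The 7 calls became 0 without CON-P1, CON-P2 or CON-P3, with 1856 to 2186 genes at an unadjusted p under 0.05, and 0 without the rRNA-rich libraries, which leaves 2 naïve pools each in CON and exGF, where 1176 genes had an unadjusted p under 0.05 in the same edgeR test. In the main effect Kcnj16 (-0.35, adjusted p = 0.138) and Glo1 (-0.10, adjusted p = 0.399) lost their call without those libraries.

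The genes that led the main effect were set side by side over the colonisations. Fosb rose by 2.58 ± 0.269 in CON, 1.53 ± 0.229 in GF and 1.96 ± 0.248 in exGF (adjusted p of the difference 0.251), beside naïve medians that were lowest in CON, as the plot by library shows. Hspa5 rose by 0.83 ± 0.12, 0.97 ± 0.115 and 0.95 ± 0.12 (0.853), and Bdnf by 0.92 ± 0.156, 1.16 ± 0.15 and 0.92 ± 0.155 (0.746). Nr4a3 spread more, with 0.96 ± 0.171, 1.59 ± 0.169 and 0.82 ± 0.168 (0.219), and so did Cirbp, with -0.26 ± 0.136, -0.80 ± 0.122 and -0.23 ± 0.135 (0.219). Per2 rose by 1.15 ± 0.135 in CON and 1.13 ± 0.128 in GF but 0.69 ± 0.13 in exGF (0.294). None of these differences passed the threshold, which does not show that the responses were equal.

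**Figure D5:**
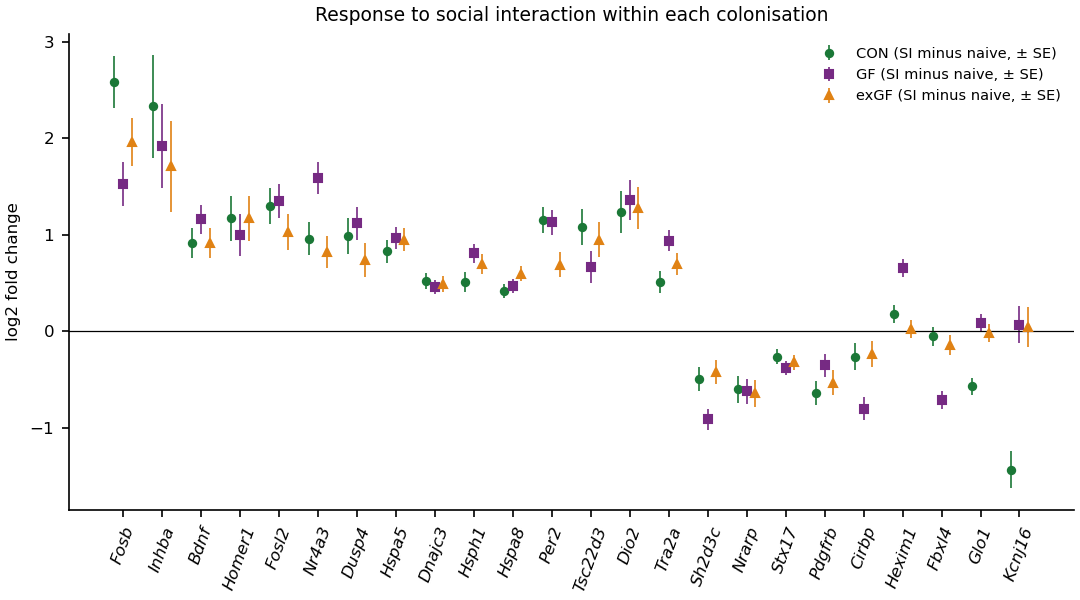
Log2 fold change of SI over naïve within CON (circles), GF (squares) and exGF (triangles) from the fit of 6 groups, with standard errors, for 24 genes. The first 20 lie on the same side of 0 in all 3 colonisations, and the last 4 are those with a called difference, of which Kcnj16 lies at -1.43 in CON beside 0.07 in GF and 0.05 in exGF.

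Genes that rose and fell also differed in length and composition, which no rule used. Rising protein-coding genes spanned a median of 32495 bases and those that fell 20035, beside 26133 for genes that were not called. The median GC content of the longest annotated transcript of each gene was 47.5%, 52.1% and 49.8%. Rises past 0.5 went the other way, with a median span of 15981 bases and a GC content of 51.9%. Without the rRNA-rich libraries the medians were 36112 bases and 47.2% for rises and 16783 bases and 52.7% for falls. Among 314 lincRNAs there were 42 falls and 12 rises. Among 314 antisense genes, whose reads cannot be told apart from those of the opposite strand, there were 47 falls and 9 rises. Falls took 13.4% of lincRNAs and a slightly higher share of antisense genes, near the 12.3% of all genes. Rises were fewer, at 3.82% of lincRNAs and 2.87% of antisense genes beside 13.8% of all genes. Processed transcripts gave 23 falls and 7 rises of 218 (10.6% and 3.21%), and processed pseudogenes 29 and 17 of 288 (10.1% and 5.9%). Small classes gave 4 rises (12.5%) and 0 falls of 32 snoRNAs and 2 and 0 of 7 scaRNAs. For miRNAs these were 3 and 1 of 53, and for snRNAs 1 and 0 of 24. Pools and single animals also differed in spread, with a common biological coefficient of variation of 0.139 in naïve and 0.175 in SI libraries.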

How the data were processed

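RNA sequencing of 40 mouse amygdala libraries was used. The deposited table holds whole-number counts per gene that the authors made without regard to strand, and per the labels and methods with CASAVA, Trimmomatic 0.32, STAR 2.4.0f1 and HTSeq 0.6.0 on GRCm38.p3. The authors' own DESeq2 comparisons hold fold changes and p-values and were not used. Table columns name the group but not the sample of each library, so that columns were mapped to groups only, and 0 columns were left over. No library pair agreed within sampling noise (smallest chi-square per degree of freedom 7.8).

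All genes were fitted with edgeR 4.0.16 (R 4.3.3) by the quasi-likelihood test with TMM scaling, filterByExpr over the 6 groups, colonisation as a covariate and Benjamini-Hochberg adjustment, with calls at 0.1. Responses within each colonisation and their difference came from a fit of 6 groups. Alternatives were DESeq2 1.42.0, limma 3.58.1 (voom), RLE scaling, no filter, equal weights, no covariate, the share of Gm42418 as a covariate, and fits without single libraries, colonisations or the 5 libraries in which Gm42418 took over 5% of the counts. The scripts were tested on simulated data with 200 changed genes. Depth limits precision mostly for genes near 1 CPM. Gene types and coordinates came from GENCODE vM21 and promoters from RefSeq (GRCm38.p6).

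Named genes were the 15 largest rises and falls at a mean of at least 1 CPM, the 10 rises and 10 falls of smallest p, up to 4 members of each list by p, the called genes of smallest p for the difference, and Gm42418 and mt-Rnr1. Not all genes the rule covers are printed. Other list members are named as examples, chosen after their values were seen. The comparison, lists and tests were chosen with earlier results of these data known. Some list members are not reported here.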

Additional observations from a re-analysis of the deposited data

Results flagged for a closer look

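Values by library were examined for 38 genes in 190 groups of 4 or 8 libraries, without GF-SI, whose 12 libraries were not examined in this way. In 20 (10.5%) the highest or lowest library lay apart from the rest of its group by Dixon's criterion. Chance gives about 1 in 20 for independent, normally spread values. The 38 genes include some described above for outlying pools, such as Adora2a and Lct, and the same libraries recur. The share therefore cannot be read against chance. exGF-S8 stood highest in exGF-SI for Bdnf (117 CPM), Dio2 (270.1 CPM), Inhba (24.4 CPM) and Zbtb16 (148 CPM). exGF-S7, rich in ribosomal RNA, and CON-S7 stood highest in their groups for Gm42418 (110850 and 12867 CPM) and mt-Rnr1 (37152 and 10594 CPM).

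Among naïve pools, GF-P1 stood out for Adora2a (14.1 CPM), exGF-P4 for Lct (7.76 CPM), GF-P2 for Nrarp (15.6 CPM) and exGF-P2 for Hspa1a (3.93 CPM). CON-P1 was highest of CON for Hspa8 (1284 CPM), and CON-P3 for Homer1 (339 CPM) and Pdia4 (73.8 CPM). Low values stood apart for Pdgfrb in exGF-P3 (13.8 CPM) and Sh2d3c in exGF-P1 (7.81 CPM). Among SI animals, Irs4 was high in exGF-S5 (4.73 CPM), and Kcnj16 in CON-S2 (10.6 CPM) and exGF-S5 (13.0 CPM).

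The response to SI differed between CON, GF and exGF by the edgeR F-test for Kcnj16 (adjusted p = 0.0275), Fbxl4 (adjusted p = 0.0759), Glo1 (adjusted p = 0.0759) and Hexim1 (adjusted p = 0.0989).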

How the results depend on the processing

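The 4194 calls numbered 3619 to 4823 under another scaling, filter, weighting, covariate or tool and without the rRNA-rich libraries (4045). Calls fell to 2372 without the exGF libraries, beside 3575 without CON and 3154 without GF, where fewer libraries were compared, and ran from 3648 to 4299 when single libraries were left out. Falls past 0.5 numbered 325, and 492 with no filter on low counts, where more genes were tested. The 7 genes with a difference between colonisations became 2 with no filter on low counts and 0 without the rRNA-rich libraries, and from 0 to 24 when single libraries were left out, with 24 without CON-P4. Of 190 called named genes 28 lost their call without the rRNA-rich libraries, 2 with DESeq2, 0 with RLE scaling and 29 when at least 1 single library was left out. The direction turned for Glo1 (0.03) and Kcnj16 (0.06) without CON, and for Slc5a7 without GF (0.31) or GF-P1 (0.32), whose values ran from -1.04 to 0.32 when single libraries were left out. Causes were not tested. No paired analysis was possible because the numbers in the column names link no naïve to SI animals. The precision of genes near 1 CPM is limited by depth.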
